A study of Homo sapiens with 8 samples.

Results

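The 4 genes described here, FGFR3, NSD2, MAF and CX3CR1, are 3 target genes of immunoglobulin heavy chain translocations in multiple myeloma and 1 gene that goes with them. They were chosen by symbol: FGFR3 and NSD2 are the genes of t(4;14), MAF is the gene of t(14;16), and CX3CR1 marks tumours with high MAF. All 4 were found among 14884 distinct gene symbols, with 1 array row each, and all 4 were among the 12734 genes that passed a filter on low values.

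RNA of 2 established human multiple myeloma cell lines was measured on expression arrays, 8 in all. The 4 groups were NCI-H929 with a short hairpin silencing SIRT6 (shSIRT6), NCI-H929 with a scramble hairpin, MM1.S with shSIRT6 and MM1.S with the scramble hairpin, with 2 arrays each. SIRT6 is an NAD-dependent deacetylase of chromatin. All cells were grown in RPMI-1640 with serum, and all carried a hairpin construct. Each translocation is represented by 1 cell line, so its effect and any other difference between the lines cannot be told apart. Whether the 2 arrays of a group stand for independent cultures is not stated, so the p-values reflect only array-to-array spread, which may be technical. Levels are log2 array values, on which a difference of 1 is a doubling, and levels of different genes are not set against each other. In bulk RNA, fewer cells of a type and less RNA per cell cannot be told apart.

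As background, a myeloma translocation places an oncogene beside the enhancers of the immunoglobulin heavy chain locus, which is very active in plasma cells. The break of t(4;14) acts on both of its sides, on FGFR3, a receptor tyrosine kinase for fibroblast growth factors (FGFs), and on NSD2, an enzyme that dimethylates histone H3 at lysine 36. NCI-H929 is known to carry t(4;14). MM1.S is known to carry t(14;16), which acts on MAF, a basic leucine zipper transcription factor. Tumours with high MAF are known for raised cyclin D2 and for CX3CR1, the receptor of the chemokine fractalkine.

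The promoters of the 4 genes are shown because an enhancer is known to act through the promoter of the gene beside it; which start site these cells used was not measured. Each is the 250 bases before a RefSeq start site in GRCh38.p14, at chr4:1793043-1793292 (plus strand) for FGFR3, chr4:1871143-1871392 (plus strand) for NSD2, chr16:79600738-79600987 (minus strand) for MAF and chr3:39281736-39281985 (minus strand) for the first of 3 start sites of CX3CR1. They run 5′ to 3′ on the strand of the gene, and capitals mark matches to the motifs named after them.
FGFR3: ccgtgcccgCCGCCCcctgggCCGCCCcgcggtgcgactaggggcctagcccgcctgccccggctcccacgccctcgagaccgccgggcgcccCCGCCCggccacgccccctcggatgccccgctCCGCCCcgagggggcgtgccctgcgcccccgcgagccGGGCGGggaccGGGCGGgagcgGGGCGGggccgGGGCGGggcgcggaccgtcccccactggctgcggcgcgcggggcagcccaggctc
NSD2: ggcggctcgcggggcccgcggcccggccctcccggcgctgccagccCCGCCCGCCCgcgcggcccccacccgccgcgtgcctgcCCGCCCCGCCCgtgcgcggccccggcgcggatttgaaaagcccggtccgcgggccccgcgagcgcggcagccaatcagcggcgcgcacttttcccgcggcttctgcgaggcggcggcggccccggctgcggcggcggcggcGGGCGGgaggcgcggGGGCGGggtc
MAF: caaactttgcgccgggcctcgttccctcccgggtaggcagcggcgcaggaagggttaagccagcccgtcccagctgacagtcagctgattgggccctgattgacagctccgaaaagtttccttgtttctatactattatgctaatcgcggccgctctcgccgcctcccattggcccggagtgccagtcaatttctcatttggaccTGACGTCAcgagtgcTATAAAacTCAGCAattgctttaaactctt
CX3CR1: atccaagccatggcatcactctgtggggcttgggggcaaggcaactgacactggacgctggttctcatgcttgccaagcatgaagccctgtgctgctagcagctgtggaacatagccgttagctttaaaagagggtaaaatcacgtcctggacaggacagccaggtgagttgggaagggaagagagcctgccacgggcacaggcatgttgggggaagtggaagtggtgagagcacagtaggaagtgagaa

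The motifs, searched on both strands, were the GC box GGGCGG, the TATA box TATAAA, the cyclic AMP response element TGACGTCA, the AP-1 site TGAGTCA and the MAF half-site TGCTGA. The 2 genes of t(4;14) had GC-rich promoters. FGFR3 had 86.8% G and C with 8 GC boxes, and NSD2 had 86.0% with 6, some of which overlap each other. A GC box was found in 42.6% of 35116 promoters of the same length. The MAF promoter had 54.4% G and C and no GC box, with a cyclic AMP response element, a TATA box and a MAF half-site near its end, motifs held by 1.65%, 10.7% and 14% of promoters. The printed CX3CR1 promoter had 55.2% G and C and no match, and 1 MAF half-site lay before another of its start sites. An AP-1 site, held by 4.2% of promoters, was found in none of the printed promoters. A match describes letters and is not a binding site.

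The median level per array ran from 3.88 to 3.97 over 48226 rows. SIRT6, the gene targeted by the hairpin, was measured at 6.25 and 6.31 in NCI-H929 shSIRT6, against 6.53 and 6.97 in NCI-H929 scramble, and at 5.60 and 5.78 in MM1.S shSIRT6, against 6.09 and 5.88 in MM1.S scramble. The means were lower with shSIRT6, but neither difference passed the test (−0.47 ± 0.16 and −0.295 ± 0.16, SE; limma, Benjamini-Hochberg adjusted p = 0.276 and 0.355). Leaving out 1 array moved the NCI-H929 value as far as −0.69 (without scramble replicate 1) and −0.25 (without scramble replicate 2), and the MM1.S value as far as −0.40 and −0.19 (without scramble replicates 2 and 1). Of 12 plasma cell markers 8 had a named row and passed the filter, with a mean level of 8.83 to 9.13 on the 8 arrays. Of 12 monocyte and macrophage markers 9 had a named row and 6 passed the filter, of 13 T and NK cell markers 8 and 8, of 8 stromal markers 3 and 1, and of 5 erythroid markers 0. Of the monocyte and macrophage list, LYZ, CD163 and VCAN averaged below the filter level of 3.045. CD68, a lysosomal glycoprotein of macrophages, was at 8.44 to 10.47 and was called higher in NCI-H929, by 1.425 with shSIRT6 and 1.90 with scramble. It was the 1 of the 6 tested that was called between the lines, beside 37.9% and 38.3% of all genes. The other markers tested lay between 3.14 and 5.28 on all arrays.

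**Figure D1:**
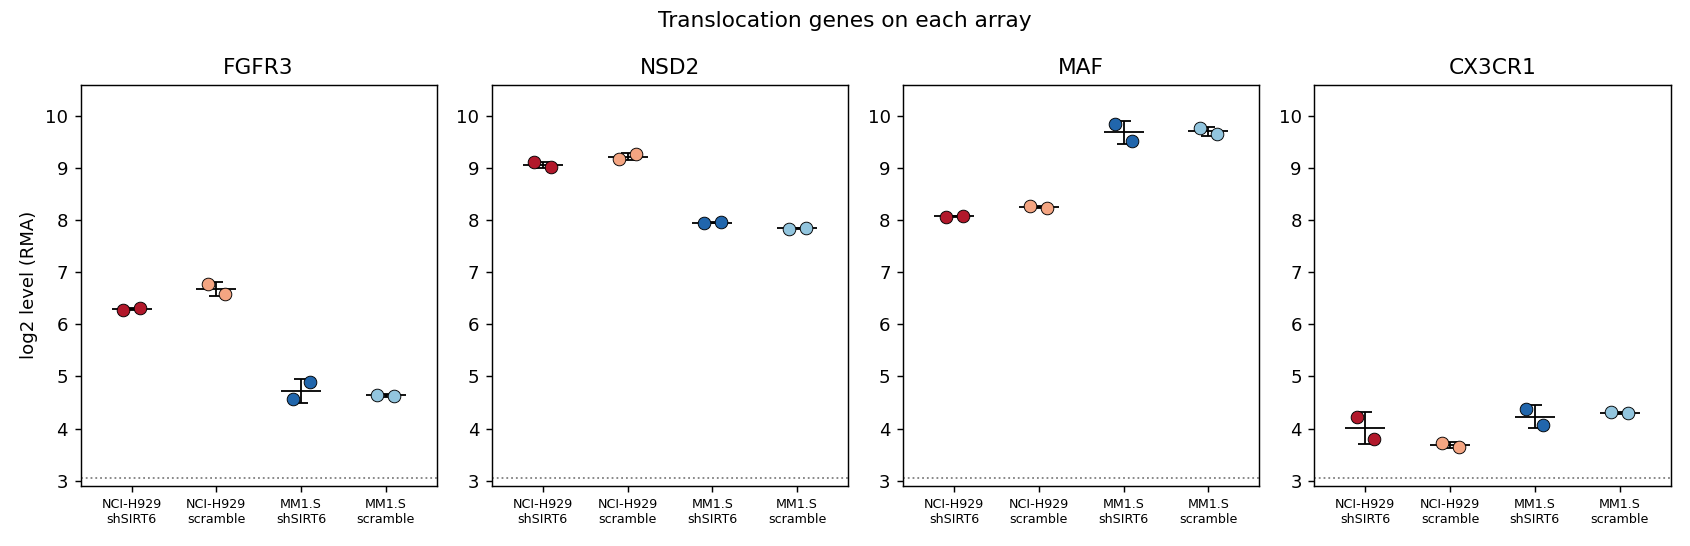
Log2 level (vertical axis) of FGFR3, NSD2, MAF and CX3CR1 in the 4 groups (horizontal axis). Points are arrays, bars and whiskers are the mean and SD of 2 arrays, and the dotted line is the filter level of 3.045. All NCI-H929 arrays lie above all MM1.S arrays for FGFR3 and NSD2 and below them for MAF, and the lines overlap for CX3CR1.

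FGFR3 was higher in NCI-H929 than in MM1.S with either construct. Its level was 6.28 and 6.31 in NCI-H929 shSIRT6, against 4.56 and 4.89 in MM1.S shSIRT6. With scramble it was 6.77 and 6.58 in NCI-H929, against 4.65 and 4.62 in MM1.S. Over both constructs every NCI-H929 array lay above every MM1.S array, as for 21.2% of all genes tested. The difference was 1.57 ± 0.13 (SE) with shSIRT6, or 2.97-fold, and 2.04 ± 0.13 with scramble, or 4.11-fold, and both passed (limma, Benjamini-Hochberg adjusted p = 9.72e-05 and 2.93e-05). Between the lines 3 of the 4 genes were called with shSIRT6 and 4 of 4 with scramble, while over all genes tested 37.9% and 38.3% were called. Called higher in NCI-H929 were 18.4% of all genes with shSIRT6 and 20% with scramble. By group mean, FGFR3 was highest in NCI-H929 scramble (6.675 ± 0.13, SD, n = 2), followed by NCI-H929 shSIRT6 (6.295 ± 0.021), and these 2 did not differ by the test. MM1.S shSIRT6 (4.725 ± 0.23) and MM1.S scramble (4.635 ± 0.021) came last and overlapped.

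NSD2 was also higher in NCI-H929. Its level was 9.11 and 9.03 in NCI-H929 shSIRT6, against 7.95 and 7.96 in MM1.S shSIRT6. With scramble it was 9.17 and 9.27 in NCI-H929, against 7.84 and 7.85 in MM1.S. No arrays of the lines overlapped, and replicates lay within 0.1 of each other. The difference was 1.115 ± 0.093 (SE) with shSIRT6, or 2.17-fold, and 1.375 ± 0.093 with scramble, or 2.59-fold (limma, Benjamini-Hochberg adjusted p = 9.59e-05 and 3.62e-05). The order of the group means was NCI-H929 scramble (9.22 ± 0.071, SD, n = 2), NCI-H929 shSIRT6 (9.07 ± 0.057), MM1.S shSIRT6 (7.955 ± 0.0071) and MM1.S scramble (7.845 ± 0.0071). Neighbours in that order within a line did not pass the test.

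MAF was lower in NCI-H929. Its level was 8.07 and 8.08 in NCI-H929 shSIRT6, against 9.85 and 9.53 in MM1.S shSIRT6. With scramble it was 8.27 and 8.24 in NCI-H929, against 9.77 and 9.65 in MM1.S. All NCI-H929 arrays lay below all MM1.S arrays, as for 20.2% of all genes. The difference was −1.615 ± 0.12 (SE) with shSIRT6, or 3.06-fold lower in NCI-H929, and −1.455 ± 0.12 with scramble, or 2.74-fold lower (limma, Benjamini-Hochberg adjusted p = 6.51e-05 and 0.000107). Called lower in NCI-H929 were 19.5% of all genes with shSIRT6 and 18.3% with scramble. The 2 MM1.S groups had means of 9.69 ± 0.23 with shSIRT6 and 9.71 ± 0.085 with scramble (SD, n = 2) and overlapped. Below them came NCI-H929 scramble (8.255 ± 0.021) and NCI-H929 shSIRT6 (8.075 ± 0.0071).

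CX3CR1 lay between 3.65 and 4.38 on all arrays, over the filter level of 3.045 and around the array medians of 3.88 to 3.97. Whether such levels stand over background was not judged. Its level was 4.23 and 3.80 in NCI-H929 shSIRT6, against 4.38 and 4.07 in MM1.S shSIRT6. With scramble it was 3.73 and 3.65 in NCI-H929, against 4.31 and 4.29 in MM1.S. The lines overlapped with shSIRT6, and with scramble NCI-H929 lay below. The difference was −0.21 ± 0.16 (SE) with shSIRT6, with a 95% interval from −0.59 to 0.17, and −0.61 ± 0.16 with scramble, or 1.53-fold lower in NCI-H929. The second passed and the first did not (limma, Benjamini-Hochberg adjusted p = 0.0212 with scramble and 0.369 with shSIRT6). Leaving out any 1 of the 4 scramble arrays ended the call (adjusted p up to 0.0975). With shSIRT6 the difference was −0.425 without replicate 1 of NCI-H929 and 0.005 without its replicate 2. In the order of group means, MM1.S scramble (4.30 ± 0.014, SD, n = 2), MM1.S shSIRT6 (4.225 ± 0.22), NCI-H929 shSIRT6 (4.015 ± 0.30) and NCI-H929 scramble (3.69 ± 0.057), no neighbours differed by the test.

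**Figure D2:**
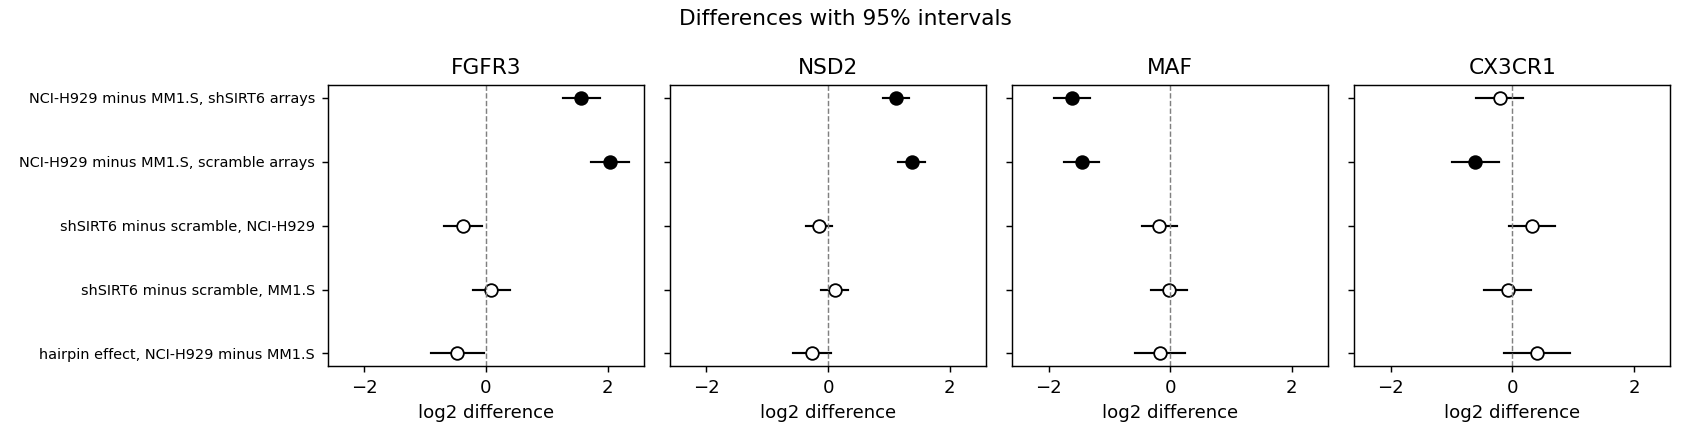
Log2 differences (horizontal axis) of the 4 genes with 95% intervals from limma, for the comparisons named on the left. Filled points have an adjusted p below 0.05. FGFR3, NSD2 and MAF passed between the lines with both constructs, CX3CR1 with scramble, and no gene passed for the hairpin.

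The hairpin changed none of the 4 genes by the test, in either line (limma, 0 of 4 each). Only FGFR3 in NCI-H929, 1 of 4, had an unadjusted p below 0.05, and in MM1.S 0 of 4 did, beside 14.5% and 19.6% of all genes. Over all genes 0.0236% were called in NCI-H929 and 1.33% in MM1.S. In NCI-H929 the shSIRT6 minus scramble difference of FGFR3 was −0.38 ± 0.13 (SE), with a 95% interval from −0.69 to −0.071 (Benjamini-Hochberg adjusted p = 0.278). NSD2 had −0.15 ± 0.093 (interval −0.37 to 0.068), MAF −0.18 ± 0.12 (−0.47 to 0.11) and CX3CR1 0.325 ± 0.16 (−0.059 to 0.71). The CX3CR1 value was 0.11 without replicate 1 of NCI-H929 shSIRT6 and 0.54 without its replicate 2. FGFR3, NSD2 and MAF lay lower with shSIRT6 on both arrays and CX3CR1 lay higher. Without overlap in that line lay 30% of all genes lower and 16.6% higher.

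In MM1.S the hairpin differences were 0.09 ± 0.13 (SE) for FGFR3 (95% interval −0.22 to 0.40), 0.11 ± 0.093 for NSD2 (−0.11 to 0.33), −0.02 ± 0.12 for MAF (−0.31 to 0.27) and −0.075 ± 0.16 for CX3CR1 (−0.46 to 0.31). The constructs overlapped for FGFR3, MAF and CX3CR1, while NSD2 lay higher with shSIRT6, as did 24.4% of all genes. The hairpin effect in NCI-H929 minus that in MM1.S was −0.47 ± 0.19 for FGFR3, −0.26 ± 0.13 for NSD2, −0.16 ± 0.18 for MAF and 0.40 ± 0.23 for CX3CR1, and none passed (limma, Benjamini-Hochberg adjusted p = 0.338, 0.426, 0.724 and 0.486). The CX3CR1 value ran from 0.185 to 0.615 when 1 array was left out. An effect that differs between the lines was called for 0.204% of all genes. Averaged over the lines the effects were −0.145, −0.02, −0.10 and 0.125 in the same order of genes, and none passed, against 0.0864% of all genes.

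Markers of other cell types known to carry CX3CR1 are given beside its values. The mean level of T and NK cell markers was 4.55 to 4.63 in NCI-H929 shSIRT6, 4.33 to 4.35 in NCI-H929 scramble, 4.43 to 4.57 in MM1.S shSIRT6 and 4.38 to 4.39 in MM1.S scramble. That of monocyte and macrophage markers was 4.4 to 4.48, 4.33 to 4.35, 4.25 to 4.30 and 4.10 to 4.21 in the same groups. With the hairpin in NCI-H929 no gene of either list was called, and the 2 lists were not compared by a test. Of the T and NK cell markers 7 of 8 were positive (median 0.2625), and of the 6 monocyte and macrophage markers tested 2 were positive and 4 negative (median −0.07), beside −0.045 over all genes. CD14, the monocyte coreceptor of lipopolysaccharide, had 0.375 and CD68 had −0.375, and neither passed. The arrays are of established myeloma cell lines, so these levels are given as values of the genes and not as shares of other cells. Their relation to CX3CR1 was not tested.

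FGFs bind their receptors together with heparan sulfate, and the signal passes through adaptor proteins to RAS and ERK. Of 18 listed ligands 15 were tested. With shSIRT6 0 were called higher and 3 lower in NCI-H929, and with scramble 1 higher and 2 lower. Over all genes, for this list and those below, 18.4% were called higher and 19.5% lower with shSIRT6. With scramble the shares were 20% and 18.3%. FGF2, basic FGF, was at 4.11 and 3.86 in NCI-H929 shSIRT6, against 7.73 and 7.62 in MM1.S shSIRT6, and at 4.17 and 3.90 in NCI-H929 scramble, against 7.88 and 7.94 in MM1.S scramble. The line with the higher FGFR3 had the lower FGF2, by −3.69 ± 0.13 (SE) with shSIRT6 and −3.875 ± 0.13 with scramble (limma, Benjamini-Hochberg adjusted p = 2.21e-06 and 1.65e-06). FGF9 was called lower too, but its means of 2.985 and 2.93 in NCI-H929 shSIRT6 and scramble were under the filter level, and it passed the filter through MM1.S, at 4.17 and 4.075. FGF1 was the other ligand called lower with shSIRT6 (−0.48). Its mean of 3.025 in NCI-H929 shSIRT6 was under the filter level, against 3.505 in MM1.S shSIRT6. FGF5 was higher with scramble (0.52) and had 0.375 with shSIRT6, which did not pass. Its means of 3.125 and 3.06 in MM1.S shSIRT6 and scramble were close to the filter level, against 3.50 and 3.58 in NCI-H929. It had no value under the stricter filter. The median over the ligands was 0.015 with shSIRT6 and −0.025 with scramble, beside 0 and 0.03 over all genes.

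Of 13 receptors and coreceptors 11 were tested, with 2 called higher and 1 lower in NCI-H929 with shSIRT6, and 4 higher and 1 lower with scramble. Besides FGFR3, the kinase-lacking receptor FGFRL1 was higher, by 0.73 with shSIRT6 and 0.92 with scramble. SDC4, the heparan sulfate proteoglycan syndecan-4, was lower, by −1.155 and −1.695. The receptor FGFR4 and SDC1, syndecan-1 of plasma cells, were called with scramble (0.695 and 0.47) and had 0.075 and −0.125 with shSIRT6. SDC1 was also the 1 gene of these FGF lists called for the hairpin: in MM1.S it was at 8.73 and 8.72 with shSIRT6, against 8.18 and 8.23 with scramble (0.52 ± 0.091, SE; limma, adjusted p = 0.0461). That call was lost in 12 of 18 alternatives.

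Of 18 adaptors and effectors 10 had a named row and were tested, with 2 called in each direction with shSIRT6, and 3 higher and 2 lower with scramble. The transcription factor STAT3 was higher in NCI-H929 by 0.91 with shSIRT6 and 0.875 with scramble. The docking protein GAB1 was lower (−0.745 and −0.985). Its relative GAB2 was called lower too, with means of 3.025 and 3.085 in NCI-H929 shSIRT6 and scramble, at the filter level, against 3.66 and 4.02 in MM1.S; it had no value under the stricter filter, and its shSIRT6 call was lost in 2 of 17 alternatives, without replicate 1 of either line's shSIRT6. The adaptor SHC1 (0.52) and STAT5B (0.595) were called higher with scramble and had 0.085 and 0.325 with shSIRT6.

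Among genes known as feedback inhibitors or targets of FGF and ERK signalling, 9 of 12 were tested, and with either construct 5 were called higher and 1 lower in NCI-H929. Their median was 1.27 with shSIRT6 and 0.88 with scramble, beside 0 and 0.03 over all genes. ETV4, an ETS transcription factor, was at 6.96 and 7.23 in NCI-H929 shSIRT6, against 4.33 and 4.67 in MM1.S shSIRT6, and at 7.47 and 7.28 in NCI-H929 scramble, against 4.28 and 4.41 in MM1.S scramble. Its difference was 2.595 ± 0.15 (SE) with shSIRT6 and 3.03 ± 0.15 with scramble. EGR1, an immediate early transcription factor, was higher by 2.22 and 1.535, and with the mean of its rows by 1.5475 and 0.9575. Higher too were the ERK phosphatase DUSP6 by 1.945 and 1.465, and SPRY4, an inhibitor of receptor tyrosine kinase signalling, by 1.545 and 1.745. DUSP4, another MAP kinase phosphatase, was lower, by −1.78 and −0.82, and ETV5 was the fifth gene called higher (1.27 and 0.88). With the hairpin 0 of 9 were called in either line (limma). An unadjusted p below 0.05 was held by 2 of 9 in NCI-H929 and 5 of 9 in MM1.S, beside 14.5% and 19.6% of all genes. In NCI-H929 the hairpin difference of EGR1 was 1.06 ± 0.14 (SE). In MM1.S ETV5 had −0.71 ± 0.14, DUSP6 −0.57 ± 0.13 and DUSP4 0.55 ± 0.11. None of these passed, though some alternatives called EGR1, DUSP6 and DUSP4 (1, 1 and 2 of 18).

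**Figure D3:**
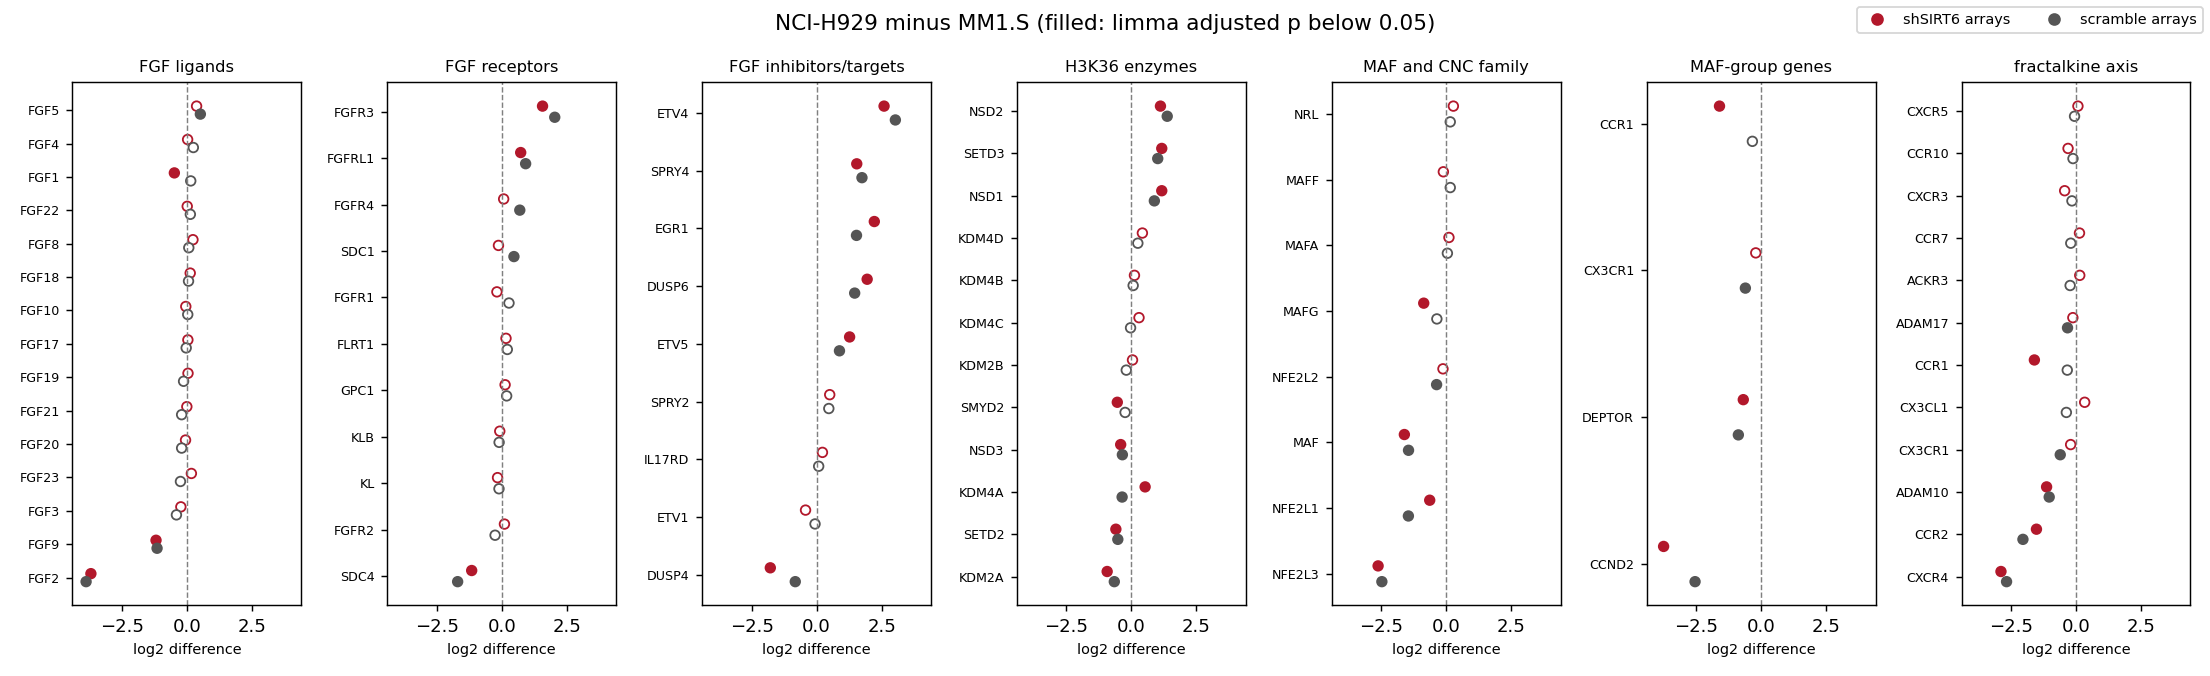
Log2 differences NCI-H929 minus MM1.S of the genes of the lists around FGFR3, NSD2, MAF and CX3CR1. Filled points have an adjusted p below 0.05 (limma). Of the FGF inhibitors and targets, the called genes ETV4, EGR1, DUSP6, SPRY4 and ETV5 lie above 0 and DUSP4 below it. FGF2, CXCR4, NFE2L3 and CCND2 also lie below 0.

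NSD2 belongs to the enzymes that write methylation at lysine 36 of histone H3, a mark that hinders the Polycomb repressive complex. Of 14 listed writers and erasers 12 were tested, with 4 called in each direction with shSIRT6, and 3 higher and 4 lower with scramble. Besides NSD2, its paralogue NSD1 was higher in NCI-H929, at 8.10 and 8.16 in NCI-H929 shSIRT6, against 7 and 6.93 in MM1.S shSIRT6, and at 8.11 and 8.10 in NCI-H929 scramble, against 7.23 and 7.22 in MM1.S scramble. SETD3, a methyltransferase counted in this list, was higher by 1.165 and 1.01, and its action on lysine 36 was not measured. SETD2, the trimethylase of the same lysine, was lower by −0.60 and −0.525, and the demethylase KDM2A by −0.935 and −0.66. The demethylase KDM4A was called in opposite directions, 0.525 with shSIRT6 and −0.36 with scramble, and a differing hairpin effect did not pass for it (0.885 ± 0.14, adjusted p = 0.0756).

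Of 11 subunits of Polycomb repressive complex 2, which methylates lysine 27 of histone H3, 9 were tested. With shSIRT6 0 were called higher and 4 lower in NCI-H929, and with scramble 1 higher and 4 lower. Called lower over all genes were 19.5% and 18.3%. The catalytic subunit EZH2 was at 8.84 and 8.86 in NCI-H929 shSIRT6, against 9.65 and 9.51 in MM1.S shSIRT6, and at 9.01 and 8.95 in NCI-H929 scramble, against 9.78 and 9.79 in MM1.S scramble. The core subunit SUZ12 was lower by −0.39 and −0.425, the histone binder RBBP7 by −0.665 and −0.375 and the accessory subunit MTF2 by −0.52 and −0.34. PHF19, another accessory subunit, was called higher with scramble (0.61) and had 0.085 with shSIRT6. The scramble call of MTF2 was lost in 9 of 18 alternatives.

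The nearest genes with a named row on each side of the 4 on their chromosomes were set beside them. Genes without such a row were passed over. Around FGFR3 and NSD2 on chromosome 4, 11 neighbours in RefSeq order were tested, of which 1 was called higher and 3 lower in NCI-H929 with shSIRT6, and 3 higher and 2 lower with scramble, beside 37.9% and 38.3% of all genes called in either direction. SCARNA22, a small Cajal body RNA encoded in an intron of NSD2, was higher by 1.10 ± 0.12 (SE) with shSIRT6 and 1.105 ± 0.12 with scramble, close in size to its host gene. LETM1, an ion exchanger gene of mitochondria that lies between FGFR3 and NSD2, did not share their direction: its difference was −0.485 with shSIRT6, which passed (limma, adjusted p = 0.00629), and −0.26 with scramble, which did not (0.0758). TMEM129, the nearest gene with a named row on the other side of FGFR3, had −0.42 and 0.225, neither of which passed. NELFA, a subunit of a factor that pauses RNA polymerase, follows NSD2 and had 0.07 and 0.04. SLBP, the binder of histone mRNA stem-loops, was lower by −0.535 and −0.395 and the DNA polymerase gene POLN by −0.86 and −0.90.

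Around MAF on chromosome 16, 9 of 10 neighbours were tested, with 3 called higher and 0 lower in NCI-H929 with either construct, opposite to MAF. Called higher over all genes were 18.4% with shSIRT6 and 20% with scramble. They were MON1B (1.18 with shSIRT6 and 1.02 with scramble), NUDT7 (1.02 and 1.115) and ATMIN (0.575 and 0.535). WWOX, the large gene within which breaks of t(14;16) are known to fall, was the nearest gene with a named row before MAF. Its differences were 0.18 and 0.05, and neither passed. Around CX3CR1 on chromosome 3, 9 of 10 were tested, with 1 called higher with shSIRT6 and 2 with scramble, EIF1B (0.795 and 0.545) in both. With the hairpin 0 neighbours of any of the 4 genes were called in either line, and at the 3 places their hairpin differences ran from −0.515 to 0.63 in NCI-H929 and from −0.30 to 0.415 in MM1.S.

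**Figure D4:**
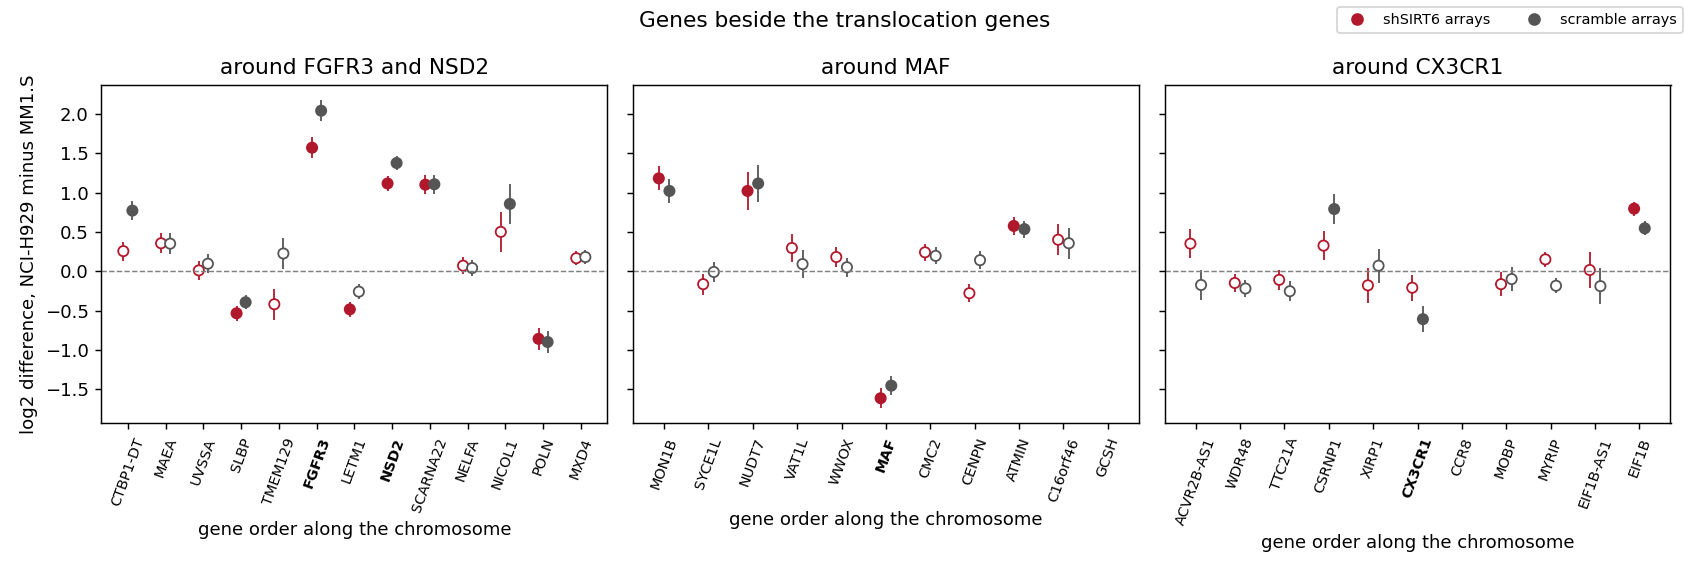
Log2 differences NCI-H929 minus MM1.S (vertical axis, with SE) of FGFR3, NSD2, MAF and CX3CR1 and of the nearest 5 named genes on each side, in chromosomal order (horizontal axis); genes without a point were under the filter. FGFR3 and NSD2 stand above LETM1 between them, and MAF stands below all its neighbours.

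MAF belongs to a family of leucine zipper factors that pair with each other and with the CNC factors of the antioxidant response. Of 13 listed genes 8 were tested, and 0 were called higher and 4 lower in NCI-H929 with either construct, MAF included. Called lower over all genes were 19.5% with shSIRT6 and 18.3% with scramble. The CNC factor NFE2L3 was at 6 and 5.73 in NCI-H929 shSIRT6, against 8.45 and 8.53 in MM1.S shSIRT6, and at 5.90 and 6.04 in NCI-H929 scramble, against 8.53 and 8.37 in MM1.S scramble. NFE2L1 was lower by −0.64 and −1.46. The small MAF gene MAFG was called with shSIRT6 (−0.87) and not with scramble (−0.365), and NFE2L2 with scramble (−0.375) and not with shSIRT6 (−0.13).

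Of 7 genes reported to go with MAF in myeloma 4 were tested, and all 4 had negative differences with both constructs, with 3 called lower in NCI-H929 in each. With scramble these were CCND2, DEPTOR and CX3CR1 itself, whose call was lost without any 1 scramble array, and with shSIRT6 they were CCND2, DEPTOR and CCR1. CCND2, cyclin D2, was at 6.86 and 6.71 in NCI-H929 shSIRT6, against 10.50 and 10.58 in MM1.S shSIRT6, and at 7.89 and 7.84 in NCI-H929 scramble, against 10.4 and 10.42 in MM1.S scramble. Its difference was −3.755 ± 0.099 (SE) with shSIRT6 and −2.545 ± 0.099 with scramble. DEPTOR, an inhibitor of mTOR, was lower by −0.69 and −0.88. The chemokine receptor CCR1 was lower by −1.605 with shSIRT6 and had −0.34 with scramble, which did not pass. The median of the list was −1.1475 and −0.745, beside 0 and 0.03 over all genes. CCND2 is also reported to be raised in t(4;14) tumours. Of that list of 7, 4 were tested, and 2 were called higher in NCI-H929 with both constructs, FGFR3 and NSD2 themselves. Called lower there were 2 with shSIRT6, CCND2 and DSG2, and 1 with scramble, CCND2. DSG2, desmoglein 2, had −0.515 with shSIRT6, which passed, and 0.175 with scramble, which did not.

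CCND1, cyclin D1, another gene of myeloma translocations, was higher in NCI-H929, by 1.755 ± 0.11 (SE) with shSIRT6 and 2.555 ± 0.11 with scramble. It was at 8.18 and 8.24 in NCI-H929 shSIRT6, against 6.34 and 6.57 in MM1.S shSIRT6, and at 8.85 and 8.93 in NCI-H929 scramble, against 6.36 and 6.31 in MM1.S scramble. MYC was higher by 0.70 and 0.815. CCND3 was called higher with scramble (0.41) and had 0 with shSIRT6, and the plasma cell factor IRF4 was called with shSIRT6 (0.465) and not with scramble (0.075). MAFA, a further MAF gene of rare translocations, had 0.10 and 0.04 and was not called.

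CX3CR1 binds CX3CL1, fractalkine, which the proteases ADAM10 and ADAM17 release from the membrane. Of 14 genes of this axis and of other chemokine receptors 12 were tested. In NCI-H929 0 were called higher and 4 lower with shSIRT6, and 0 higher and 5 lower with scramble. Called lower over all genes were 19.5% and 18.3%. The scramble calls include CX3CR1 itself, whose call was lost without any 1 scramble array. CXCR4, the receptor of the marrow chemokine CXCL12, was at 5.55 and 5.56 in NCI-H929 shSIRT6, against 8.40 and 8.49 in MM1.S shSIRT6, and at 5.88 and 5.62 in NCI-H929 scramble, against 8.55 and 8.30 in MM1.S scramble. The monocyte chemokine receptor CCR2 was lower by −1.525 and −2.045 and ADAM10 by −1.135 and −1.035. ADAM17 was called with scramble (−0.33) and had −0.125 with shSIRT6. CX3CL1 itself had 0.33 with shSIRT6 and −0.375 with scramble, and neither passed. The median was −0.26 and −0.335, beside 0 and 0.03 over all genes.

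Of all these lists, the hairpin calls were SDC1 in MM1.S, given above, and CCND2 in NCI-H929. CCND2 was lower with shSIRT6 there by −1.08 ± 0.099 (SE; limma, Benjamini-Hochberg adjusted p = 0.0484), a call lost in 15 of 18 alternatives, and with the mean of its rows the difference was −0.64. In MM1.S its hairpin difference was 0.13 ± 0.099 and did not pass.

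The genes most like each of the 4 over the 8 arrays were taken by Pearson's r among 2163 or 2164 genes whose group means span at least 1. For FGFR3 they were LCAT (0.998), MT1X (0.997) and LINC02864 (0.997), for NSD2 MPPED2 (0.999), JAG2 (0.999) and NFIC (0.999), and for MAF TMEM62 (0.999), CARMIL1 (0.999) and ADAM10 (0.997). Such values were common, with 573, 634 and 644 candidates above 0.95 for FGFR3, NSD2 and MAF, since the arrays fall into 2 lines. CX3CR1 had 0 above 0.95, and its nearest were CNKSR1 (0.929), ATF3 (0.916) and ZNF542P (0.913). ZNF542P had a mean of 2.49 in NCI-H929 scramble, under the filter level, and 3.20 in NCI-H929 shSIRT6, against 4.67 and 4.135 in MM1.S. LINC02864 had means of 3.205 and 3.18 in MM1.S shSIRT6 and scramble, close to that level. The correlations describe 8 arrays and carry no test.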

How the data were processed

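Total RNA of 8 samples in 4 groups was measured on Affymetrix arrays. The deposited log2 values are, per the submitters' processing notes, RMA values made with Transcriptome Analysis Console; the notes name hg19. They were used as deposited. Of 48226 rows, 16098 had 1 gene symbol in the platform annotation and 32128 were left unnamed. The row with the highest mean stood for a gene, and the 12734 genes averaging over 3.045, which is the 30th percentile of row means, were tested. Group means were fitted on all 8 arrays with limma 3.58.1 in R 4.3.3 (lmFit, eBayes), with Benjamini-Hochberg adjustment over all genes tested and a threshold of 0.05. The number of arrays limits the precision: an exact permutation test of 2 arrays against 2 cannot go below a two-sided p of 0.333. The fit was tested on simulated data.

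The members and gene lists were chosen with earlier results of these data known. Named were the 4 genes and SIRT6, up to 5 genes per list with the lowest p between the lines with scramble, every list gene called for the hairpin, 5 neighbours on each side and the 3 most similar genes. FGF1, ETV5, KDM4A, CX3CL1, MAFA, CD14, CD68, LYZ, CD163 and VCAN fall outside this rule and were named after their values were seen. Promoters and gene order are from RefSeq. Alternatives changed the normalization, filter, rows, variance model, weights, block and replicates.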

Additional observations from a re-analysis of the deposited data

Results flagged for a closer look

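The effect of the hairpin on CCND2, cyclin D2, differed between the lines by a test of the difference itself. It was −1.08 ± 0.099 in NCI-H929 and 0.13 ± 0.099 in MM1.S on the log2 scale (SE), a difference of −1.21 ± 0.14 (limma interaction, Benjamini-Hochberg adjusted p = 0.0371). Both NCI-H929 shSIRT6 arrays lay below both NCI-H929 scramble arrays, as for 30% of all genes tested. The call was lost in 11 of 17 alternatives, and the difference was −0.805 with the mean of the gene's rows.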

How the results depend on the processing

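FGFR3, NSD2 and MAF kept their direction and their call between the lines in 18 of 18 alternatives with either construct. With shSIRT6 FGFR3 ran from 1.405 to 1.735, NSD2 from 1.075 to 1.155 and MAF from −1.775 to −1.455, and with scramble from 1.945 to 2.135, 1.325 to 1.425 and −1.515 to −1.395. CX3CR1 with scramble ran from −0.65 to −0.57 and lost its call in 4 of 18, those that leave out a scramble array. Of 59 further genes named and called between the lines with scramble, 13 lost the call in at least 1 alternative: MTF2 in 9 of 18, ADAM17 and CCND3 in 6, NFE2L2, NICOL1 and STAT5B in 5, FGFR4 and RBBP7 in 4, FGF5 in 4 of 17, SLBP in 3, FGFRL1 and CSRNP1 in 2 and NUDT7 in 1. With shSIRT6 6 of 51 lost it: FGFRL1 and CNKSR1 in 3 of 18, SUZ12 in 2 of 18, GAB2 and ZNF542P in 2 of 17 and NUDT7 in 1 of 18, each on leaving out a shSIRT6 array. Calls were also gained: of the further named genes not called as reported, 6 with scramble and 5 with shSIRT6 were called between the lines in at least 1 alternative. CCR1 with scramble was called in 3 of 18. For the hairpin such genes numbered 8 in MM1.S, 4 in NCI-H929 and 10 for the difference between lines. None of the 4 genes was called for the hairpin under any alternative run. Signs of small hairpin differences in MM1.S changed for FGFR3, MAF and CX3CR1 in some alternatives.

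Counts of genes called depended more on the settings. Testing every row of the table gave 9049 calls between the lines with scramble (4875 as reported) and 8910 with shSIRT6 (4823). For the hairpin in MM1.S (169) the stricter filter gave 314, every row 94, a variance trend 953, the replicate block 78 and the 2 groups alone 0. In NCI-H929 (3) every row gave 29 and a variance trend 194, while quantile or cyclic loess normalization, no filter, the mean of rows, array weights, the replicate block and the 2 groups alone gave 0. For the mean of both lines (11) quantile normalization gave 4, cyclic loess 5, the stricter filter 98, every row 0, a variance trend 911 and the replicate block 0. For the difference between lines (26) a variance trend gave 430 and the replicate block 5. Leaving out 1 array gave 3785 to 4638 calls between the lines with shSIRT6, 3722 to 4882 with scramble, 0 to 84 for the hairpin in MM1.S, 0 in NCI-H929, 0 for the mean and 2 to 6 for the difference; the lone array is then assumed to vary like the other groups. The cause of these shifts was not tested.

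Same-numbered arrays did not deviate together (correlations of −0.012 to 0.074 over 6 pairs of groups), so the numbers are not taken to pair the arrays, and the replicate block left the calls of the 4 genes as they were. Without scanner files, signal over background was not judged.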
